A study of Neurospora crassa with 12 samples.

Results

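The response of *Neurospora crassa* to inorganic phosphate (Pi) was compared between the Δ*pac-3* and the Δ*mus-52* strains in all 12 of 12 RNA-seq libraries of the series. For each gene the log2 ratio of high-Pi over low-Pi in Δ*pac-3* was set against the same ratio in Δ*mus-52*. The first minus the second is called the difference of responses here. A positive value means that the level in high-Pi relative to low-Pi was higher in Δ*pac-3* than in Δ*mus-52*, or, put the other way, that Δ*pac-3* stood higher relative to Δ*mus-52* in high-Pi than in low-Pi. Of 9730 genes, 8465 had enough reads to be tested.

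The 4 groups were Δ*pac-3* in high-Pi, Δ*pac-3* in low-Pi, Δ*mus-52* in high-Pi and Δ*mus-52* in low-Pi, with 3 biological replicates each, numbered I to III. In Δ*pac-3* the *pac-3* reading frame (NCU00090) was replaced with the *bar* gene in a *mus-52* knockout background, so both strains are described as lacking *mus-52*, a gene of DNA end joining. Conidia came from 10-day cultures in Δ*pac-3* and 5-day cultures in Δ*mus-52*, and were left to germinate (5 h, 30 °C, pH 5.4) in 10 mM Pi (high-Pi) or 10 µM Pi (low-Pi), with 44 mM sucrose and 50 mM citrate, and the mycelium was harvested. The older Δ*pac-3* cultures also spent more days at room temperature in ambient light. Strain, age of the conidial culture and its time in light changed together and cannot be told apart.

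PAC-3 is the *N. crassa* member of the PacC family of zinc finger transcription factors, which fungi use to adapt gene expression to ambient pH. Pi shortage is sensed in *N. crassa* through a separate pathway in which the cyclin PREG restrains the transcription factor NUC-1 when Pi is plentiful, and in which the ankyrin protein NUC-2 releases NUC-1 when Pi is short, so that permeases and phosphatases are made. A gene with different responses to Pi in the strains is a gene whose strain effect depends on Pi.

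The libraries held from 20240314 to 82211503 counts. The level of *mus-52* (NCU00077) went against the label in the 6 libraries labelled Δ*mus-52*. The gene had 22.6, 19.7 and 21.1 CPM (counts scaled to a common library total) in high-Pi and 22.2, 20.2 and 24.9 CPM in low-Pi in these libraries, against at most 1.04 CPM in those labelled Δ*pac-3*. Gene totals do not show which part of a gene the reads cover, and the group names below are those of the labels. The level of *mus-52* changed together with the strain label and cannot be told apart from it. The level of *pac-3* was 130, 183 and 153 CPM in high-Pi and 153, 134 and 158 CPM in low-Pi in the libraries labelled Δ*pac-3*, and 353 to 523 CPM in the other 6. Reads were thus counted for *pac-3* in the libraries labelled Δ*pac-3*, although its reading frame is described as replaced. Which part of the gene they cover is not known. The biological coefficient of variation was 0.264 in Δ*pac-3* high-Pi, 0.131 in Δ*pac-3* low-Pi, 0.133 in Δ*mus-52* high-Pi and 0.107 in Δ*mus-52* low-Pi, so the first group was the most variable. On the second principal component (16.3% of the variance), Δ*pac-3* high-Pi I lay at 28.5, whereas II and III lay at −8.21 and −14.2. The summed level of the conidial markers was 802 to 1313 CPM in Δ*pac-3* high-Pi, 959 to 1115 CPM in Δ*pac-3* low-Pi, 1349 to 1692 CPM in Δ*mus-52* high-Pi and 663 to 1139 CPM in Δ*mus-52* low-Pi, and the part of these spores in the results was not tested. In Δ*mus-52*, 2 of the 11 markers rose and 2 fell in high-Pi by the test. The carotenoid gene *al-1* (log2 response 1.82) and *ccg-1* (−2.03) went opposite ways, so the sum does not measure spore content. Of the 11 conidial markers 0 were at zero in every library, and the 6 perithecial and ascospore markers summed to 152 to 245 CPM.

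A difference of responses was found for 886 genes (edgeR, adjusted p below 0.05), which is 10.5% of the genes tested. It was positive for 637 genes (7.53%) and negative for 249 (2.94%). The positive differences were larger, with a median of 1.46 against 0.65 in absolute log2 value, and 303 of the 307 genes with an absolute difference of at least 1.5 (3.63% of the genes tested) were positive. The median over all genes tested was −0.01. In bulk RNA, fewer cells of a type and less RNA per cell cannot be told apart. When libraries were scaled by their total counts alone the split moved to 646 positive and 132 negative genes, and the median over all genes to 0.05.

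More genes passed the test of the Pi response in Δ*mus-52* than in Δ*pac-3*. By edgeR, 0 genes passed the test of high-Pi against low-Pi in Δ*pac-3* and 1654 in Δ*mus-52* (0.0% and 19.5% of the genes tested). In Δ*pac-3*, 790 genes had an unadjusted p below 0.05, and DESeq2 called 84 genes and limma-voom with quality weights called 0. The count in Δ*pac-3* depended on single libraries, as 246 genes were called without Δ*pac-3* high-Pi III, 2 without Δ*pac-3* low-Pi I and 1 without Δ*pac-3* high-Pi I. Of the genes tested, 143 had a fitted change of at least 2-fold between the Pi conditions in Δ*pac-3* and 709 in Δ*mus-52*. Of the 886 genes, 781 (88.1%) had a larger absolute log2 response in Δ*mus-52* than in Δ*pac-3*, against 68.8% of all genes tested. The 886 genes were chosen on the difference of these responses, so their share is a description. At an unadjusted p below 0.05, 287 of the 886 genes (32.4%) had a response in Δ*pac-3*, against 9.33% of all genes tested.

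**Figure D1:**
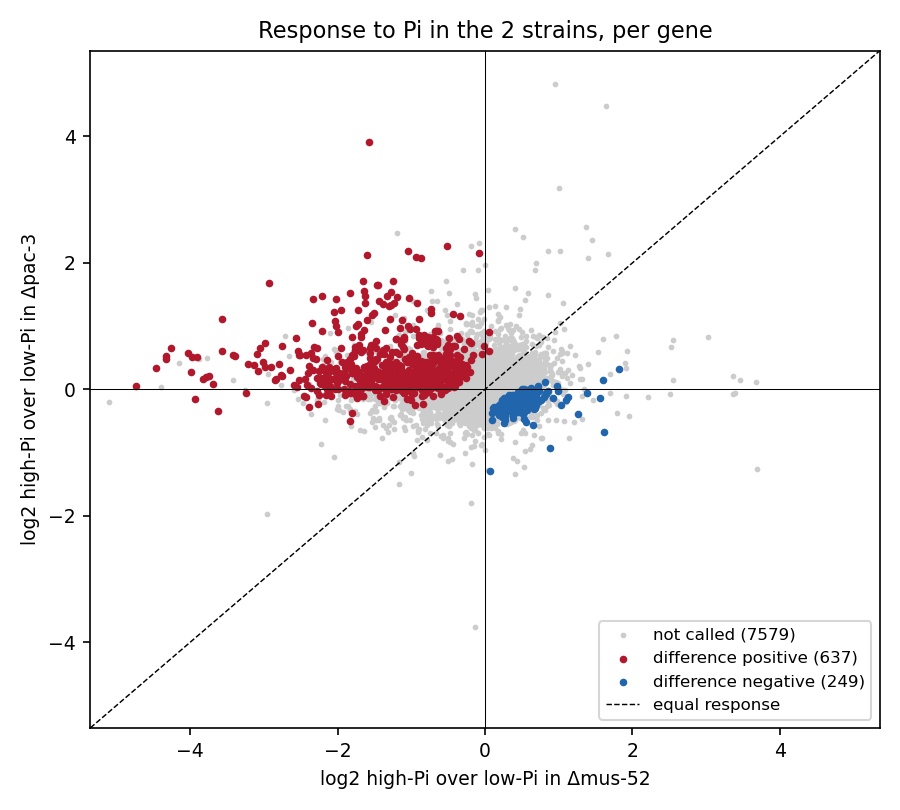
Response to Pi of each of 8465 genes in Δ*pac-3* (vertical axis, log2 of high-Pi over low-Pi) against that in Δ*mus-52* (horizontal axis, same unit). Each point is a gene, the dashed line marks equal responses, the 637 genes with a positive difference are red and the 249 with a negative difference are blue. Of the 886 coloured points, 781 are farther from 0 along the horizontal axis than along the vertical axis.

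The responses of the strains share no library. The 2 gene sets below were chosen on the Δ*mus-52* response, so a large response in that strain is built into the choice. The values in Δ*pac-3* did not enter the size of that response. Their spread entered its p, because the fit shares the spread of a gene over all groups. The count in Δ*mus-52* was 1654 in this fit and 2666 in a fit of its 6 libraries alone. Among the 949 genes (11.2%) that fell in high-Pi in Δ*mus-52*, the median log2 response was 0.12 in Δ*pac-3* and −0.995 in Δ*mus-52*, and 68.4% had the opposite sign in Δ*pac-3*. Among the 705 genes (8.33%) that rose in high-Pi in Δ*mus-52*, the median was −0.02 in Δ*pac-3* and 0.50 in Δ*mus-52*. Of these, 54.9% had the opposite sign in Δ*pac-3*. Over all genes tested, 4536 of 8465 had opposite signs in the strains. A change of at least 2-fold was fitted in Δ*pac-3* for 33 of the 949 genes and 1 of the 705 genes, and in Δ*mus-52* for 472 and 25 of them. Across all 8465 genes, which share libraries and are not replicates, Pearson's r between the responses was −0.13 and Spearman's rho −0.10. Without Δ*pac-3* high-Pi I, the median in Δ*pac-3* was 0.24 for the genes that fell and −0.10 for those that rose in Δ*mus-52*.

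The levels of these 2 gene sets were compared in each library. The sets were chosen because Δ*mus-52* high-Pi and low-Pi differ, so the distance between the Δ*mus-52* groups is fixed by that choice. The place of the Δ*pac-3* libraries is not, although their spread entered the p used for the choice. For the 949 genes, the median log2 deviation from the mean of the 12 libraries was −0.21, 0.23 and 0.16 in Δ*pac-3* high-Pi I, II and III and −0.20, 0.03 and 0.04 in Δ*pac-3* low-Pi, against −0.51, −0.53 and −0.37 in Δ*mus-52* high-Pi and 0.41, 0.51 and 0.56 in Δ*mus-52* low-Pi. The Δ*pac-3* libraries lay between the 2 Δ*mus-52* groups, and both Δ*pac-3* libraries numbered I lay below the others of their group. For the 705 genes the Δ*pac-3* libraries lay between −0.20 and 0.03, against 0.42, 0.40 and 0.26 in Δ*mus-52* high-Pi and −0.08, −0.16 and −0.19 in Δ*mus-52* low-Pi.

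**Figure D2:**
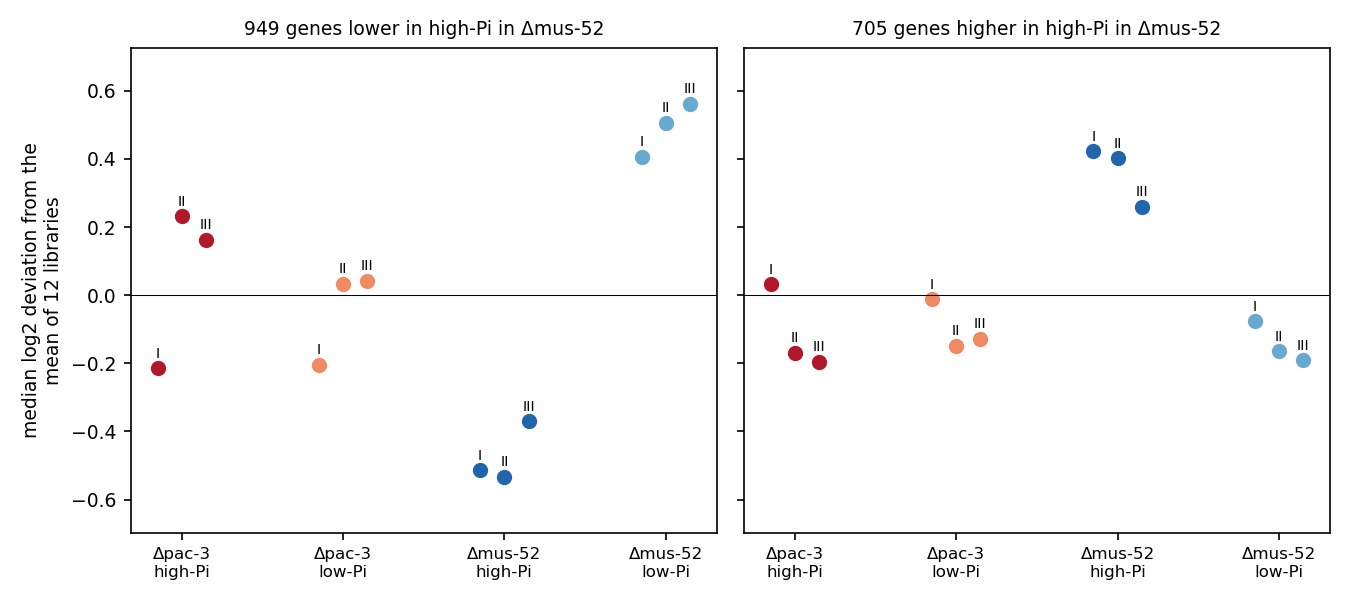
Median log2 deviation from the mean of all 12 libraries (vertical axis) in each library of the 4 groups (horizontal axis), for the 949 genes lower (left) and the 705 genes higher (right) in high-Pi in Δ*mus-52*. Each point is a library with its replicate number. The Δ*pac-3* libraries of both Pi conditions lie between the Δ*mus-52* groups in the left panel and with Δ*mus-52* low-Pi in the right panel.

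The 886 genes were sorted by which contrasts between neighbouring groups passed the test (adjusted p below 0.05 in edgeR). In 281 genes Δ*mus-52* high-Pi alone was apart, that is, it differed from Δ*mus-52* low-Pi and from Δ*pac-3* high-Pi while no other contrast passed. In 251 genes Δ*mus-52* low-Pi was apart in this sense. In a further 227 genes the Δ*mus-52* response and both strain effects passed. A Δ*pac-3* group could not be apart by this rule, which needs a called Pi response in Δ*pac-3*, so these counts do not compare the strains. By a rule of at least 2-fold in place of the p, chosen after seeing the data, 2 genes had Δ*pac-3* high-Pi and 5 had Δ*pac-3* low-Pi apart, against 102 and 117 genes for the Δ*mus-52* groups in high-Pi and low-Pi. The strain effect passed the test in high-Pi and not in low-Pi for 322 of the 886 genes (36.3%, against 19.3% over all 8465 genes), in low-Pi and not in high-Pi for 308 (34.8% against 14.3%), and in both for 250 (28.2% against 27.6%). Over all genes tested, the strain effect passed for 47.0% in high-Pi (22.0% of all genes lower in Δ*pac-3*) and 41.9% in low-Pi (20.9% higher and 21.0% lower). These counts come from the libraries that gave the 886 genes and describe them. The strain effect passed in both Pi conditions with opposite signs for 113 genes. In 97 of them Δ*pac-3* was higher than Δ*mus-52* in high-Pi and lower in low-Pi, and in 16 the reverse held.

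The count of 886 genes depended on single libraries. It was 1585 without Δ*pac-3* high-Pi I, 490, 579 and 560 without Δ*pac-3* low-Pi I, II or III, 514 and 392 without Δ*mus-52* high-Pi I or II, and 451 and 450 without Δ*mus-52* low-Pi II or III. Positive differences were the majority in each of these fits, and 364 of the 886 genes were called in all 12 fits with a library left out. The count of genes with Δ*mus-52* high-Pi apart was 525 and 159 without Δ*pac-3* high-Pi I or II, 161 without Δ*pac-3* low-Pi I, 115 and 86 without Δ*mus-52* high-Pi I or II, and 131 without Δ*mus-52* low-Pi II or III. The count with Δ*mus-52* low-Pi apart was 155 without Δ*pac-3* low-Pi I, 144 without Δ*mus-52* high-Pi II, and 146 and 138 without Δ*mus-52* low-Pi II or III. The 1654 genes responding to Pi in Δ*mus-52* became 701 without Δ*mus-52* high-Pi II, 812 without high-Pi I, 818 without low-Pi II and 765 without low-Pi III.

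**Figure D3:**
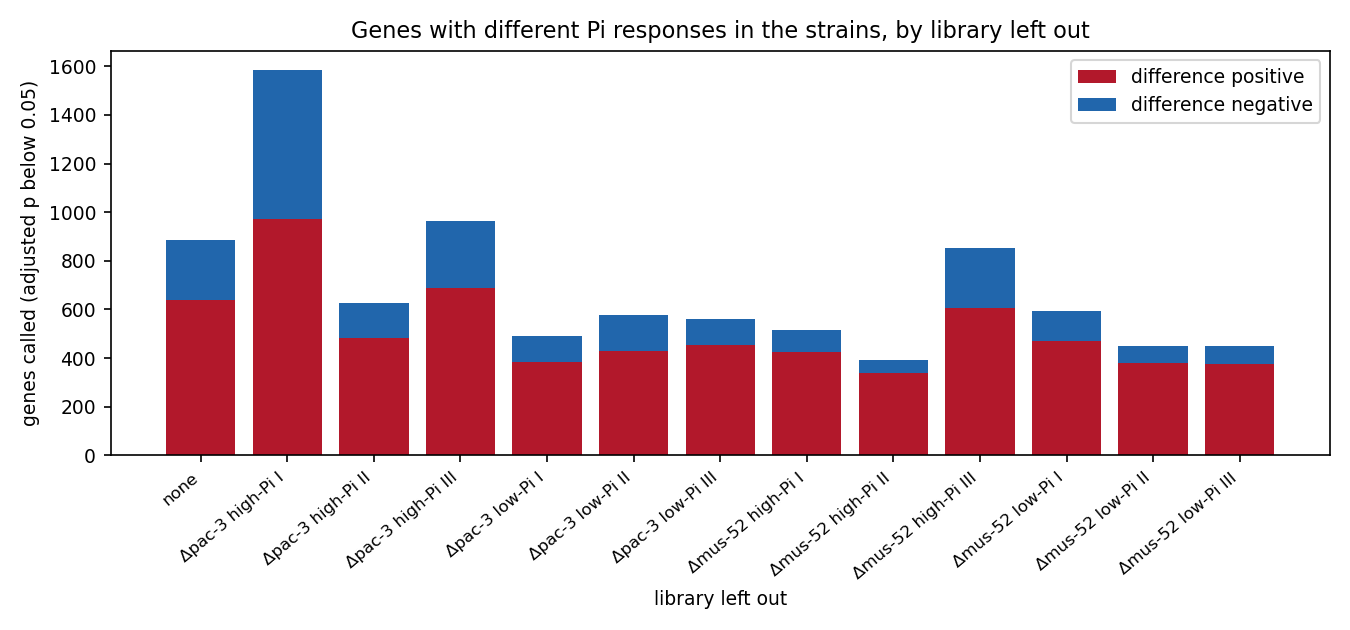
Number of genes with different responses to Pi in the strains (vertical axis, adjusted p below 0.05 in edgeR) with all libraries (none) and with each library left out (horizontal axis), split into positive (red) and negative (blue) differences. The highest bar, 1585 genes, is without Δ*pac-3* high-Pi I and the lowest, 392 genes, is without Δ*mus-52* high-Pi II.

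The largest positive differences among genes that reached 10 CPM in a group and passed in all 12 fits with a library left out were those of NCU04148, NCU09603, NCU07149, NCU03921, NCU09627, NCU02939, NCU09629 and NCU00250. NCU03921, annotated as a homologue of the mitochondrial chaperone Bcs1, which inserts the iron-sulfur protein into respiratory complex III in yeast, had 71.3, 307 and 333 CPM in Δ*pac-3* high-Pi and 107, 231 and 248 CPM in Δ*pac-3* low-Pi, against 29.3, 33.8 and 96.0 CPM in Δ*mus-52* high-Pi and 593, 868 and 1076 CPM in Δ*mus-52* low-Pi. The Δ*pac-3* groups overlapped, and the Δ*mus-52* groups did not. Its difference of responses was 4.27 ± 0.82 (log2, SE; edgeR adjusted p = 0.0082).

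NCU09629 and NCU09627 are neighbouring genes for hypothetical proteins. NCU09629 had 129, 481 and 414 CPM in Δ*pac-3* high-Pi and 140, 278 and 291 CPM in Δ*pac-3* low-Pi, against 55.7, 54.5 and 125 CPM in Δ*mus-52* high-Pi and 615, 824 and 1041 CPM in Δ*mus-52* low-Pi. NCU09627 had 14.6, 55.6 and 33.8 CPM, 15.3, 25.4 and 31.3 CPM, 3.13, 2.42 and 6.25 CPM, and 32.8, 35.2 and 59.5 CPM in the same groups. Both were lowest in Δ*mus-52* high-Pi without overlap with any other group. Their differences were 3.93 ± 0.67 and 3.96 ± 0.67 (log2, SE), with adjusted p of 0.0047 and 0.0046 (edgeR).

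NCU09603 had 2.07, 9.28 and 6.33 CPM in Δ*pac-3* high-Pi and 2.76, 4.92 and 4.40 CPM in Δ*pac-3* low-Pi, against 0.891, 0.921 and 1.85 CPM in Δ*mus-52* high-Pi and 16.4, 20.6 and 23.1 CPM in Δ*mus-52* low-Pi. NCU07149 had 3.32, 14.3 and 18.1 CPM, 6.14, 8.85 and 10.4 CPM, 1.23, 1.61 and 4.24 CPM, and 30.1, 38.3 and 42.7 CPM in these groups. In both genes Δ*mus-52* low-Pi was above all other libraries, and Δ*pac-3* lay between the Δ*mus-52* groups or overlapped the lower. The differences were 4.60 ± 0.65 for NCU09603 and 4.48 ± 0.77 for NCU07149 (log2, SE). NCU04148 had a difference of 4.69 ± 0.74, NCU02939 of 3.95 ± 0.87 and NCU00250 of 3.77 ± 0.40, with adjusted p of 0.0032, 0.016 and 7.1e-04 (edgeR). In these 8 genes the fitted response lay between 0.20 and 1.43 in Δ*pac-3*, and between −4.03 and −2.34 in Δ*mus-52*.

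The negative differences were smaller. NCU07748 had the largest, at −2.29 ± 0.46 (log2, SE; edgeR adjusted p = 0.011). Its level was 6.24, 7.65 and 9.79 CPM in Δ*pac-3* high-Pi and 7.13, 15.2 and 16.2 CPM in Δ*pac-3* low-Pi, against 277, 175 and 271 CPM in Δ*mus-52* high-Pi and 104, 50.4 and 82.1 CPM in Δ*mus-52* low-Pi. The gene was far lower in Δ*pac-3* in both conditions, with a log2 strain effect of −4.93 (high-Pi) and −2.64 (low-Pi). NCU00999 differed by −1.46 ± 0.31 and had the opposite strain effect, with 918, 625 and 446 CPM in Δ*pac-3* high-Pi and 691, 542 and 567 CPM in Δ*pac-3* low-Pi, against 435, 338 and 386 CPM in Δ*mus-52* high-Pi and 132, 106 and 143 CPM in Δ*mus-52* low-Pi. Only the Δ*mus-52* groups were separated by Pi in these 2 genes.

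NCU08225, annotated as the high affinity nickel transporter nic1, had 142, 115 and 108 CPM in Δ*pac-3* high-Pi and 177, 123 and 133 CPM in Δ*pac-3* low-Pi, against 329, 320 and 390 CPM in Δ*mus-52* high-Pi and 208, 210 and 228 CPM in Δ*mus-52* low-Pi. Its difference was −0.93 ± 0.21 (log2, SE; edgeR adjusted p = 0.017). The other genes of this group, for which no function is given here, were NCU06751 at −1.28, NCU09719 at −1.08, NCU03188 at −1.02, NCU06801 at −1.003 and NCU09509 at −0.97. NCU09719 and NCU09509 were lowest in Δ*mus-52* low-Pi, and NCU06751, NCU03188 and NCU06801 highest in Δ*mus-52* high-Pi.

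The genes with the smallest p among those with Δ*mus-52* low-Pi apart were NCU00322, NCU02203 and NCU00250. NCU02203, a C2H2 zinc finger protein, had 169, 251 and 231 CPM in Δ*pac-3* high-Pi and 142, 179 and 171 CPM in Δ*pac-3* low-Pi, against 157, 163 and 208 CPM in Δ*mus-52* high-Pi and 535, 649 and 679 CPM in Δ*mus-52* low-Pi. NCU00322 had 17.2, 12.7 and 17.4 CPM, 8.91, 9.84 and 11.9 CPM, 15.7, 19.3 and 14.6 CPM, and 58.1, 58.3 and 52.6 CPM in these groups. Δ*mus-52* low-Pi was above the other 9 libraries in both genes, and in NCU00322 Δ*pac-3* low-Pi was below them. The differences were 2.22 ± 0.24 for NCU02203 and 2.40 ± 0.22 for NCU00322 (log2, SE), with adjusted p of 7.1e-04 and 2.9e-04 (edgeR).

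With Δ*mus-52* high-Pi apart, the genes with the smallest p were *ci-1*, NCU08847 and NCU09692. *ci-1* (NCU05001, cycloheximide-inducible-1) had 273, 468 and 455 CPM in Δ*pac-3* high-Pi and 260, 377 and 401 CPM in Δ*pac-3* low-Pi, against 55.2, 69.0 and 90.1 CPM in Δ*mus-52* high-Pi and 312, 487 and 651 CPM in Δ*mus-52* low-Pi. It differed by 2.96 ± 0.41 (log2, SE; edgeR adjusted p = 0.0020). NCU09692, annotated as a phosphatidic acid phosphatase, an enzyme that makes diacylglycerol from phosphatidic acid, had 37.3, 38.0 and 18.5 CPM in Δ*pac-3* high-Pi and 17.2, 14.8 and 14.8 CPM in Δ*pac-3* low-Pi, against 5.01, 8.87 and 5.41 CPM in Δ*mus-52* high-Pi and 18.3, 23.5 and 22.8 CPM in Δ*mus-52* low-Pi. Its difference was 2.76 ± 0.38, and that of NCU08847 was 1.28 ± 0.18 (log2, SE; edgeR adjusted p = 0.0020 for both). In each of the 3 genes the Δ*mus-52* high-Pi libraries lay below the other 9. In NCU09692 the Δ*pac-3* high-Pi libraries were also above the Δ*pac-3* low-Pi ones, without overlap.

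By a rule chosen after seeing the data, the 4 genes with the largest absolute Pi response in Δ*pac-3*, among those that reached 10 CPM and were called in every fit, were *pho-4*, NCU02765, NCU00766 and NCU06131. NCU02765, annotated as an RNA binding protein, had 163, 54.2 and 30.4 CPM in Δ*pac-3* high-Pi and 15.8, 17.5 and 21.1 CPM in Δ*pac-3* low-Pi, against 105, 115 and 80.0 CPM in Δ*mus-52* high-Pi and 211, 177 and 233 CPM in Δ*mus-52* low-Pi. The high-Pi libraries were above the low-Pi ones in Δ*pac-3* and below them in Δ*mus-52*, without overlap, and library I was the highest of Δ*pac-3* high-Pi. Its difference was 3.24 ± 0.63 with an adjusted p of 0.0090, whereas the responses of 2.19 in Δ*pac-3* and −1.05 in Δ*mus-52* had adjusted p of 0.19 and 0.11 (log2, edgeR).

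NCU00766 had 25.2, 9.88 and 7.37 CPM in Δ*pac-3* high-Pi and 3.21, 2.91 and 3.54 CPM in Δ*pac-3* low-Pi, against 16.7, 19.0 and 13.8 CPM in Δ*mus-52* high-Pi and 50.6, 51.9 and 48.0 CPM in Δ*mus-52* low-Pi. NCU06131 had 12.5, 12.1 and 5.81 CPM, 3.22, 2.95 and 3.02 CPM, 6.35, 6.41 and 5.92 CPM, and 22.1, 14.9 and 22.1 CPM in these groups. In both, the high-Pi libraries were above the low-Pi ones in Δ*pac-3* (adjusted p = 0.15 for both responses) and below them in Δ*mus-52*, without overlap. The differences were 3.74 ± 0.50 and 3.38 ± 0.36 (log2, SE; edgeR adjusted p = 0.0018 and 7.1e-04).

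**Figure D4:**
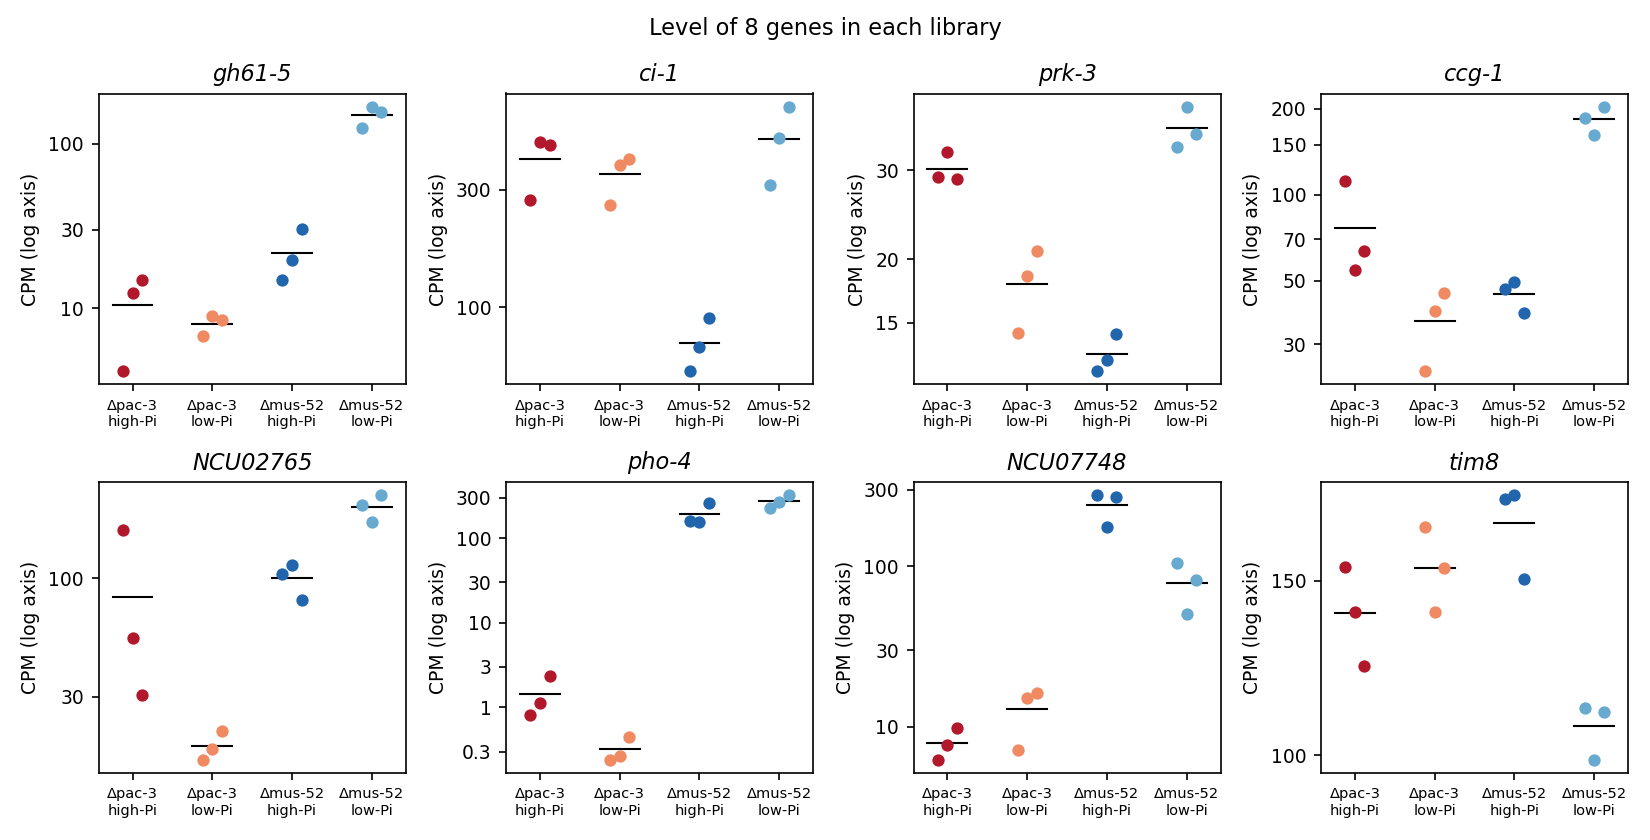
CPM (vertical axis, log scale, not starting at 0) of 8 genes in the 12 libraries of the 4 groups (horizontal axis). Points are libraries in the order I, II and III, and the bar is the group mean. In *gh61-5*, *ccg-1* and *prk-3* Δ*mus-52* low-Pi is above the other groups, in *ci-1* Δ*mus-52* high-Pi is below them, in NCU02765 the Pi groups are in opposite order in the strains, *pho-4* stays below 3 CPM in Δ*pac-3*, and NCU07748 and *tim8* have negative differences.

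Of 10 genes of Pi acquisition and signalling 1 was called, *pho-4* (NCU09564), a high-affinity Pi permease, and the median difference was −0.06 against −0.01 over all genes. In Δ*mus-52*, 0 of the 10 fell and 1 rose in high-Pi by the test, against 11.2% and 8.33% of all genes. The fitted log2 responses in Δ*mus-52* were −0.52 for *pho-4*, −0.45 for *pho-5*, 0.55 for *pho-2* and 0.67 for *pho-3*. *pho-4* had 0.821, 1.12 and 2.36 CPM in Δ*pac-3* high-Pi and 0.241, 0.268 and 0.447 CPM in Δ*pac-3* low-Pi, against 161, 154 and 257 CPM in Δ*mus-52* high-Pi and 229, 268 and 321 CPM in Δ*mus-52* low-Pi. Its difference of 2.78 ± 0.54 (log2, SE; edgeR adjusted p = 0.0084) passed in edgeR and DESeq2, and with limma-voom quality weights the adjusted p was 0.076. The level was below 3 CPM in Δ*pac-3* in both conditions, and the Δ*mus-52* groups overlapped. The gene overlaps another annotated gene.

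The transcription factor gene *nuc-1* (NCU09315) had 82.2, 103 and 106 CPM in Δ*pac-3* high-Pi and 97.4, 119 and 117 CPM in Δ*pac-3* low-Pi, against 85.8, 74.7 and 96.9 CPM in Δ*mus-52* high-Pi and 93.4, 102 and 98.6 CPM in Δ*mus-52* low-Pi. The permease gene *pho-5* (NCU08325) had 3.81, 1.93 and 3.66 CPM, 2.41, 1.56 and 1.68 CPM, 37.9, 42.4 and 55.7 CPM, and 49.0, 55.5 and 82.1 CPM in these groups. It resembled *pho-4* in being lower in Δ*pac-3*, and its difference of 1.13 ± 0.39 (log2, SE) had an adjusted p of 0.084 (edgeR). The phytase gene *pht-1* (NCU06351), whose product releases Pi from phytate, differed by −0.29 ± 0.14 (adjusted p = 0.18). The alkaline phosphatase gene *pho-2* and the acid phosphatase gene *pho-3* differed by −0.57 and −0.61 (adjusted p = 0.23 and 0.56), the second with a sign that turned without Δ*pac-3* low-Pi I (0.22), and the 9 genes not called lay between −0.61 and 1.13. DESeq2 called 2 genes of the list and limma-voom 0.

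Of the 7 genes of pH signalling edgeR called 0 (2 had an unadjusted p below 0.05), limma-voom 0 and DESeq2 1, NCU00317. That gene had 16.6, 20.5 and 15.7 CPM in Δ*pac-3* high-Pi and 12.4, 19.3 and 18.7 CPM in Δ*pac-3* low-Pi, against 31.0, 27.6 and 32.6 CPM in Δ*mus-52* high-Pi and 47.0, 46.2 and 45.5 CPM in Δ*mus-52* low-Pi. The Δ*mus-52* groups did not overlap and the Δ*pac-3* groups did. The difference was 0.68 ± 0.23 (log2, SE; edgeR adjusted p = 0.076), and for *pac-3* itself it was 0.44 ± 0.19 (edgeR adjusted p = 0.15), called in 1 of the 12 fits with a library left out, that without Δ*pac-3* high-Pi I. The counts of *pac-3* in Δ*pac-3* cannot be read as an intact transcript, since its reading frame is described as replaced.

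Of 14 genes that the study discusses under a particular Pi condition, 6 were called (42.9% against 10.5% of all genes), all 6 with positive differences, and the median was 1.09. Without any one library, 2 to 8 were called. The study chose these genes on strain effects in the same libraries. Neither the share called nor the direction is therefore independent evidence. The 3 called cell wall genes among them, *gh61-5*, *ncw-6* and *ncw-3*, had Δ*mus-52* low-Pi at the top, and the chitinase gene *chit-1*, which was not called, did not. *gh61-5* (NCU08760), of the family of polysaccharide monooxygenases that cleave cellulose by oxidation, had 4.14, 12.4 and 14.9 CPM in Δ*pac-3* high-Pi and 6.76, 8.99 and 8.42 CPM in Δ*pac-3* low-Pi, against 14.9, 19.5 and 30.4 CPM in Δ*mus-52* high-Pi and 125, 168 and 155 CPM in Δ*mus-52* low-Pi. Its difference was 3.18 ± 0.52 (log2, SE; edgeR adjusted p = 0.0043).

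The cell wall protein gene *ncw-6* (NCU00586) had 9.13, 6.93 and 5.96 CPM in Δ*pac-3* high-Pi and 4.45, 5.41 and 5.15 CPM in Δ*pac-3* low-Pi, against 10.4, 13.01 and 7.87 CPM in Δ*mus-52* high-Pi and 34.0, 23.8 and 26.0 CPM in Δ*mus-52* low-Pi. It differed by 1.99 ± 0.30 and *ncw-3* by 1.17 ± 0.32 (log2, SE), with adjusted p of 0.0029 and 0.037 (edgeR). The call of *ncw-3* held in 4 of the 12 fits with a library left out, with adjusted p up to 0.091.

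The 3 called transporter genes of the same list and NCU06860 had Δ*mus-52* high-Pi at the bottom. NCU07546, annotated as a multidrug resistance protein, had 346, 458 and 668 CPM in Δ*pac-3* high-Pi and 429, 524 and 509 CPM in Δ*pac-3* low-Pi, against 60.9, 89.4 and 172 CPM in Δ*mus-52* high-Pi and 278, 352 and 436 CPM in Δ*mus-52* low-Pi. NCU08056, annotated as the ABC drug exporter AtrF, had 205, 80.9 and 103 CPM, 154, 94.3 and 88.4 CPM, 19.3, 24.2 and 25.6 CPM, and 70.1, 66.5 and 72.1 CPM in these groups. In both, the strains differed in high-Pi by the test and not in low-Pi. The differences were 1.74 ± 0.47 for NCU07546, 1.80 ± 0.42 for NCU08056 and 1.36 ± 0.33 for the monocarboxylate transporter NCU05089 (log2, SE; edgeR adjusted p = 0.037, 0.021 and 0.025). These calls held in 3, 7 and 5 of the 12 fits with a library left out. The multidrug transporter NCU06860 had a difference of 1.49 ± 0.45 that missed the threshold (edgeR adjusted p = 0.054) and passed in 2 of the 12 fits, those without Δ*pac-3* high-Pi I or Δ*mus-52* high-Pi III, and with DESeq2 and limma-voom.

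A further list holds the 15 qPCR genes, of which 4 were called (26.7% against 10.5% of all genes), and 3 to 6 without any one library. Besides NCU03921 and NCU09629 these were NCU01386, for a hypothetical protein, at 1.29 ± 0.28, and the major facilitator transporter NCU03107 at 1.62 ± 0.36 (log2, SE; edgeR adjusted p = 0.014 and 0.016). NCU03107 had 55.0, 119 and 132 CPM in Δ*pac-3* high-Pi and 74.3, 101 and 97.2 CPM in Δ*pac-3* low-Pi, against 110, 103 and 131 CPM in Δ*mus-52* high-Pi and 287, 313 and 343 CPM in Δ*mus-52* low-Pi. Δ*mus-52* low-Pi alone was apart. The qPCR genes were also picked on these strains, so the share called is not independent evidence. The study ran the qPCR itself on separate RNA samples. There the strain effect was negative in low-Pi and positive in high-Pi for NCU03921 and NCU09629. It kept its sign between the conditions for NCU01386 and NCU03107.

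Of the 1091 tested genes that have a symbol, 88 were called, which is 8.07% against 10.5% of all genes. By a rule chosen after seeing the data, 13 of these were called in every fit with a library left out and had a difference of at least 1.5, all positive. They include 4 protein kinase genes, *prk-3*, *stk-26*, *stk-34* and *stk-52*, and the histidine kinase gene *nik-2*. *prk-3* (NCU03659) had 29.1, 32.6 and 28.8 CPM in Δ*pac-3* high-Pi and 14.3, 18.5 and 20.7 CPM in Δ*pac-3* low-Pi, against 12.03, 12.7 and 14.3 CPM in Δ*mus-52* high-Pi and 33.4, 40.1 and 35.4 CPM in Δ*mus-52* low-Pi. Its strain effect on the log2 scale was 1.22 (high-Pi) and −1.03 (low-Pi; edgeR adjusted p = 4.0e-05 and 1.3e-04), so that Δ*pac-3* was higher in the first condition and lower in the second. The difference of 2.24 ± 0.20 (log2, SE) had an adjusted p of 2.9e-04 (edgeR).

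*stk-52* (NCU08767) had 86.7, 133 and 130 CPM in Δ*pac-3* high-Pi and 91.8, 97.4 and 99.8 CPM in Δ*pac-3* low-Pi, against 98.1, 89.1 and 99.1 CPM in Δ*mus-52* high-Pi and 241, 245 and 299 CPM in Δ*mus-52* low-Pi. The differences were 1.73 for *stk-52*, 1.96 for *stk-26*, 1.63 for *stk-34* and 1.78 for *nik-2* (log2). In the list of 63 tested serine/threonine kinase genes, 6 had a positive and 1 a negative difference, which is 11.1% called against 10.5% of all genes, the median was 0.11, and 5 to 10 were called without any one library. The share is near the background.

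The 13 genes also held *clr-2* and *ccg-1*. *clr-2* (NCU08042), an activator of cellulase genes, had 2.27, 7.44 and 8.78 CPM in Δ*pac-3* high-Pi and 2.75, 5.28 and 4.98 CPM in Δ*pac-3* low-Pi, against 2.18, 4.15 and 4.37 CPM in Δ*mus-52* high-Pi and 18.5, 21.8 and 20.7 CPM in Δ*mus-52* low-Pi. *ccg-1* (NCU03753), a clock-controlled gene that glucose represses, had 112, 54.5 and 63.5 CPM, 24.1, 39.3 and 45.3 CPM, 46.9, 49.6 and 38.4 CPM, and 186, 163 and 204 CPM in these groups. Both were highest in Δ*mus-52* low-Pi without overlap with the other groups. They differed by 3.06 ± 0.60 and 3.12 ± 0.38 (log2, SE; edgeR adjusted p = 0.0088 and 0.0012).

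*rpn-4* (NCU01640), named after the yeast activator of proteasome genes, had 112, 136 and 148 CPM in Δ*pac-3* high-Pi and 53.9, 91.2 and 89.3 CPM in Δ*pac-3* low-Pi, against 93.9, 102 and 96.6 CPM in Δ*mus-52* high-Pi and 171, 182 and 162 CPM in Δ*mus-52* low-Pi. Its difference was 1.58 ± 0.24 (log2, SE; edgeR adjusted p = 0.0031). Its high-Pi libraries were above the low-Pi ones in Δ*pac-3* and below them in Δ*mus-52*, without overlap. The other 29 tested genes of the proteasome list were not called (a share of 3.33% for the list against 10.5% of all genes), and the median of the 30 was −0.25. *ecd-1* (NCU06302), also among the 13, differed by 1.52 ± 0.27 (edgeR adjusted p = 0.0058).

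Genes of the mitochondrial import machinery, which carries nuclear-encoded proteins into the organelle, leaned the other way. All 26 tested had a difference below 0, with a median of −0.42, and 4 were called, which is 15.4% against the background of 10.5% (2 to 8 without any one library). In Δ*mus-52*, 17 of the 26 rose in high-Pi by the test, against 8.33% of all genes tested, and in Δ*pac-3* the median response was 0.03. *tim8* (NCU11311), a chaperone of the intermembrane space, had 155, 139 and 123 CPM in Δ*pac-3* high-Pi and 170, 139 and 154 CPM in Δ*pac-3* low-Pi, against 181, 183 and 150 CPM in Δ*mus-52* high-Pi and 112, 99.0 and 111 CPM in Δ*mus-52* low-Pi. Δ*mus-52* low-Pi was below the other 9 libraries. Its difference was −0.83 ± 0.17 (log2, SE; edgeR adjusted p = 0.011).

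*tom20* (NCU06632), a receptor of the outer membrane, had 233, 205 and 203 CPM in Δ*pac-3* high-Pi and 272, 229 and 236 CPM in Δ*pac-3* low-Pi, against 349, 327 and 297 CPM in Δ*mus-52* high-Pi and 237, 231 and 238 CPM in Δ*mus-52* low-Pi. It differed by −0.66 ± 0.15 (log2, SE; edgeR adjusted p = 0.016). The processing peptidase gene *mpp* and *mim1*, for outer membrane insertion, differed by −0.60 and −0.49, and their calls held in 2 and 1 of the 12 fits with a library left out. With scaling by total counts both missed the threshold.

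In complex I of the respiratory chain 25 of 29 genes had a difference below 0 (median −0.21) and 1 was called (3.45% against 10.5% of all genes), *nuo10.5* at −0.73 ± 0.13 (log2, SE; edgeR adjusted p = 0.0065). In the TCA cycle 15 of 17 were below 0 (median −0.18), and in the vacuolar ATPase 13 of 14 (median −0.18), with 0 called in both by edgeR, DESeq2 and limma-voom and with 2 and 0 genes at an unadjusted p below 0.05. The lean was not confined to these lists. In the proteasome list 28 of 30 were below 0 (median −0.25), and among cytosolic ribosomal proteins 8 of 9 (median −0.33). In each of these, 1 gene was called (3.33% and 11.1%, against 10.5% of all genes). Over all genes tested 4354 of 8465 differences were below 0. With scaling by total counts the median over all genes moved by less than 0.1, to 0.05.

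**Figure D5:**
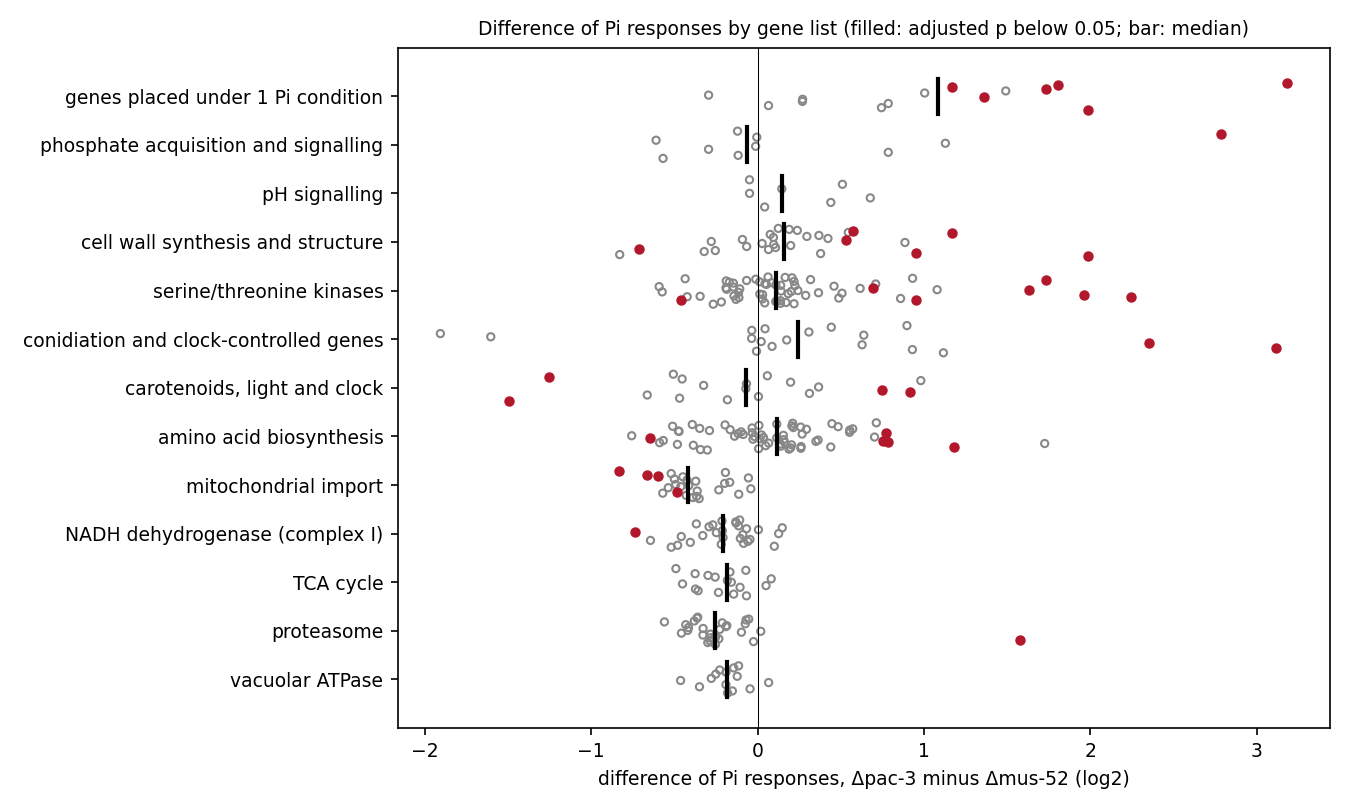
Difference of responses, Δ*pac-3* minus Δ*mus-52* (horizontal axis, log2), for the tested genes of 13 lists (vertical axis, points spread for visibility). Filled points passed the test (adjusted p below 0.05 in edgeR), open points did not, and the bar is the median of the list. The medians run from −0.42 in mitochondrial import to 1.09 in the genes that the study placed under a Pi condition, and all of the called mitochondrial import genes lie below 0.

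In the cell wall list, 5 genes had a positive and 1 a negative difference among 28 tested, that is 21.4% against the background of 10.5%. Beside *ncw-3* and *ncw-6* these included the glucanosyltransferase gene *gel-3* (NCU08909), which had 1650, 1377 and 1628 CPM in Δ*pac-3* high-Pi and 1403, 1604 and 1401 CPM in Δ*pac-3* low-Pi, against 343, 368 and 347 CPM in Δ*mus-52* high-Pi and 454, 524 and 515 CPM in Δ*mus-52* low-Pi. *gel-3* was higher in Δ*pac-3* by 2.14 (high-Pi) and 1.56 (low-Pi) on the log2 scale, a difference of 0.58 ± 0.15 (SE; edgeR adjusted p = 0.035). The call of *gel-3* held in 5 and that of *acw-3* (0.53 ± 0.14) in 4 of the 12 fits with a library left out. Without any one library, 1 to 7 genes of the list were called.

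Light and clock genes went in both directions, with 2 positive and 2 negative among 18 (22.2% called against 10.5% of all genes, and 2 to 5 genes without any one library). *al-1* (NCU00552), the phytoene dehydrogenase of carotenoid synthesis, had 491, 267 and 329 CPM in Δ*pac-3* high-Pi and 316, 267 and 285 CPM in Δ*pac-3* low-Pi, against 940, 675 and 897 CPM in Δ*mus-52* high-Pi and 348, 145 and 220 CPM in Δ*mus-52* low-Pi. Its difference was −1.49 ± 0.40, and that of the blue-light-induced gene *bli-4* −1.25 ± 0.34 (log2, SE; edgeR adjusted p = 0.036 and 0.037). These 2 calls held in 2 and 3 of the 12 fits with a library left out. The blue light receptor gene *wc-1* (NCU02356) had 125, 115 and 136 CPM in Δ*pac-3* high-Pi and 89.5, 76.9 and 76.3 CPM in Δ*pac-3* low-Pi, against 85.7, 106 and 113 CPM in Δ*mus-52* high-Pi and 135, 115 and 120 CPM in Δ*mus-52* low-Pi. It differed by 0.91 ± 0.17 and the checkpoint kinase gene *prd-4* by 0.75 ± 0.16 (edgeR adjusted p = 0.0074 and 0.014), and both were called in every fit. The fitted log2 response of *wc-1* was 0.63 in Δ*pac-3* and −0.28 in Δ*mus-52*.

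Among the 64 tested genes of amino acid synthesis, 4 had a positive and 1 a negative difference (7.81% called against 10.5%). By the test, 45 were lower in Δ*pac-3* in high-Pi and 42 in low-Pi, against 22.0% and 21.0% of all genes. Without any one library, 2 to 8 were called. *arg-3* (NCU02677), for arginine synthesis, had 909, 1020 and 1357 CPM in Δ*pac-3* high-Pi and 1048, 925 and 864 CPM in Δ*pac-3* low-Pi, against 2295, 1975 and 1999 CPM in Δ*mus-52* high-Pi and 3288, 3173 and 2846 CPM in Δ*mus-52* low-Pi. *lys-5* (NCU05526), for lysine synthesis, had 875, 1119 and 1109 CPM, 1067, 935 and 937 CPM, 2099, 1781 and 1698 CPM, and 2954, 2932 and 3122 CPM in these groups. Both were lower in Δ*pac-3* under both conditions, and more so in low-Pi. The differences were 0.78 ± 0.21 and 0.77 ± 0.17 (log2, SE; edgeR adjusted p = 0.034 and 0.018), called in 4 and 11 of the 12 fits with a library left out. *arg-13*, a mitochondrial carrier of basic amino acids, differed by 0.75 ± 0.15, and *leu-5*, the mitochondrial leucyl-tRNA synthetase, by −0.65 ± 0.13 (edgeR adjusted p = 0.0098 and 0.011). The fitted log2 response of *arg-13* was 0.41 in Δ*pac-3* and −0.34 in Δ*mus-52*.

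The subunits *cac-1* and *cac-3* of a chromatin assembly factor differed by −0.63 ± 0.11 and −0.42 ± 0.11, and they were the 2 called genes of 44 chromatin genes (4.55% against 10.5% of all genes) (edgeR adjusted p = 0.0046 and 0.033), the second in 3 of the 12 fits with a library left out. *cac-1* (NCU04198) had 51.4, 48.3 and 48.5 CPM in Δ*pac-3* high-Pi and 59.0, 61.5 and 63.4 CPM in Δ*pac-3* low-Pi, against 57.7, 54.7 and 57.3 CPM in Δ*mus-52* high-Pi and 44.8, 46.1 and 45.5 CPM in Δ*mus-52* low-Pi. Its high-Pi libraries were below the low-Pi ones in Δ*pac-3* and above them in Δ*mus-52*. The nitrite reductase gene *nit-6* (NCU04720) had the same order, with 594, 718 and 559 CPM in Δ*pac-3* high-Pi and 877, 817 and 824 CPM in Δ*pac-3* low-Pi, against 924, 779 and 911 CPM in Δ*mus-52* high-Pi and 636, 618 and 754 CPM in Δ*mus-52* low-Pi, and differed by −0.81 ± 0.17 (edgeR adjusted p = 0.014).

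The conidiation gene *con-13* differed by 2.35 ± 0.66 at levels below 3 CPM in every library, the MAP kinase gene *os-2* of the osmotic response by 0.60 ± 0.16 and the chaperone gene *hsp80* by −0.51 ± 0.14 (log2, SE; edgeR adjusted p = 0.042, 0.037 and 0.035). Their calls held in 4, 4 and 3 of the 12 fits with a library left out. The fitted log2 response of *os-2* was 0.56 in Δ*pac-3* and −0.04 in Δ*mus-52*. Of the conidial markers 3 of 11 were called (27.3% against 10.5% of all genes, and 1 to 4 without any one library), *ccg-1* and *con-13* with positive and *al-1* with negative differences, and of the 6 perithecial and ascospore markers 0 (edgeR, DESeq2 and limma-voom, with 0 at an unadjusted p below 0.05). In the lists of polyketide synthases (5 tested), histones (9), cation ATPases and transporters (9), and catalases, superoxide dismutases and glutathione transferases (13), edgeR called 0 genes. At an unadjusted p below 0.05 there were 0, 1, 2 and 3 genes in these lists, DESeq2 called 0, 0, 0 and 1, and limma-voom 0, 0, 1 and 0. In the remaining lists edgeR called 2 of 72 glycosyl hydrolases (2.78%) and 2 of 35 DNA repair genes (5.71%), and 1 gene each of 20 for peroxisomes, 9 ribosomal proteins, 13 heat shock proteins, 12 for nitrogen use, 16 for acetate use, 21 for germling fusion and MAP kinases and 11 induced by menadione. These shares ran from 2.78% to 11.1%, against 10.5% of all genes.

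The position of the called genes on the chromosomes was also described. Of the 637 genes with a positive difference, 187 (29.4%) lay next to another such gene, whereas 12.8% of all genes tested lay next to one, and for negative differences these shares were 8.03% and 5.47%. They are given as a description with no test. Neighbours that overlap in the annotation may share reads, and the part of this in the shares was not tested. Positive differences formed 15 runs of at least 3 adjacent genes, up to 4 genes long, and negative ones none. The run from NCU00247 to NCU00250 had differences from 1.12 to 3.77, and the run from NCU05527 to NCU05524, which holds *lys-5*, from 0.77 to 2.13. *prk-3* lies beside NCU03660, annotated as the FK506 suppressor Sfk1, with differences of 2.24 and 3.46. Called genes made up between 9.41% (chromosome VII) and 11.9% (chromosome V) of the genes tested on each of the 7 chromosomes.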

How the data were processed

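RNA-seq of *N. crassa* mycelium was analysed in 12 libraries. The authors trimmed paired-end reads, checked them with FastQC 0.11.7, mapped them with Bowtie2 2.3.4 and deposited raw counts per gene and library without normalization. The counting tool and the use of strand are not given in the sources used here. The tables of the strain comparisons deposited by the authors hold fold changes and p-values and were not used.

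Genes were kept by filterByExpr (minimum count 10, minimum total 15) and fitted in edgeR 4.0.16 (R 4.3.3) with TMM factors and the quasi-likelihood F test, with all 12 libraries and 4 group means. Adjusted p-values (Benjamini-Hochberg, over all 8465 genes) below 0.05 were called. The simple contrasts came from the same fit. The standard error was the log2 value divided by the root of F, and the prior count was 0.125. CPM used TMM factors. DESeq2 1.42.0, limma 3.58.1, other scalings, filters and thresholds, a replicate block and leaving out each library were alternatives. The script was tested on simulated data. Tables were joined with pandas 2.3.3.

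The named genes were the 8 largest positive and the 8 largest negative differences among genes called in every fit with a library left out and reaching 10 CPM in a group, the 3 smallest p for each group that stood apart, the members of 4 lists, up to 4 genes per further list, and *pac-3* and *mus-52*. Others are marked as chosen later. The members and lists were chosen with earlier results of these data known. Lists were matched by gene symbol, since the RefSeq table (NC12) held 9729 of the gene IDs, 1118 of them with a symbol, and no product names. Product names were taken from the study's supplementary tables. Among the 71 genes discussed with their difference of responses, 13 overlap a neighbour in the annotation, whose reads may be part of the count.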

Additional observations from a re-analysis of the deposited data

Results flagged for a closer look

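The response to Pi differed between Δ*pac-3* and Δ*mus-52* by the test of the difference itself (edgeR, adjusted p below 0.05) in 886 genes. The log2 difference of responses, Δ*pac-3* minus Δ*mus-52*, is given in brackets for the 63 of them that are described by name.

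Differences of at least 3 were those of NCU04148 (4.69), NCU09603 (4.60), NCU07149 (4.48), NCU03921 (4.27), NCU09627 (3.96), NCU02939 (3.95), NCU09629 (3.93), NCU00250 (3.77), NCU00766 (3.74), NCU06131 (3.38), NCU02765 (3.24), *gh61-5* (3.18), *ccg-1* (3.12) and *clr-2* (3.06). Between 1.5 and 3 lay *ci-1* (2.96), *pho-4* (2.78), NCU09692 (2.76), NCU00322 (2.40), *con-13* (2.35), *prk-3* (2.24), NCU02203 (2.22), *ncw-6* (1.99), *stk-26* (1.96), NCU08056 (1.80), *nik-2* (1.78), NCU07546 (1.74), *stk-52* (1.73), *stk-34* (1.63), NCU03107 (1.62), *rpn-4* (1.58) and *ecd-1* (1.52). Smaller positive differences were those of NCU05089 (1.36), NCU01386 (1.29), NCU08847 (1.28), *ncw-3* (1.17), *wc-1* (0.91), *arg-3* (0.78), *lys-5* (0.77), *arg-13* (0.75), *prd-4* (0.75), *os-2* (0.60), *gel-3* (0.58) and *acw-3* (0.53). Negative differences were those of NCU07748 (−2.29), *al-1* (−1.49), NCU00999 (−1.46), NCU06751 (−1.28), *bli-4* (−1.25), NCU09719 (−1.08), NCU03188 (−1.02), NCU06801 (−1.003), NCU09509 (−0.97), NCU08225 (−0.93), *tim8* (−0.83), *nit-6* (−0.81), *nuo10.5* (−0.73), *tom20* (−0.66), *leu-5* (−0.65), *cac-1* (−0.63), *mpp* (−0.60), *hsp80* (−0.51), *mim1* (−0.49) and *cac-3* (−0.42).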

How the results depend on the processing

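The count of 886 genes with different Pi responses was 1346 with DESeq2 (884 of the 886 among them), 54 with a test against a log2 bound of 1, 307 with an absolute log2 of at least 1.5 and 243 at an adjusted p below 0.01. Other scalings, filters, limma-voom with quality weights, and, chosen after seeing the data, leaving out both Δ*pac-3* libraries numbered I gave 778 to 1173 genes. Leaving out each library gave 392 to 1585. Genes responding to Pi in Δ*pac-3* were 0 in edgeR and 84 with DESeq2, 2 without both Δ*pac-3* libraries numbered I, and 0 to 246 without a library. Those in Δ*mus-52* were 1654, and 3328 with limma-voom, 2666 in a fit of its 6 libraries alone and 701 to 2205 without a library. Genes with a strain effect numbered 3214 to 4171 in high-Pi and 2755 to 3925 in low-Pi without a library. Genes with Δ*mus-52* low-Pi apart were 251, and 423 with limma-voom and 138 to 374 without a library, and those with Δ*mus-52* high-Pi apart were 281, and 422 with DESeq2 and 86 to 525 without a library. The cause of these shifts was not tested. Of the 71 named differences, that of *pho-3*, which was not called, alone changed sign, with −0.61 in the fit of all libraries, 0.31 without both Δ*pac-3* libraries numbered I and −1.08 to 0.22 without a library.

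The replicate numbers are shared between groups, and 8 of 18 pairs of same-numbered libraries deviated together with a correlation above 0.1 (range −0.16 to 0.36). Pairs numbered I were all positive (0.06 to 0.36), whereas II ran from −0.16 to 0.08 and III from −0.02 to 0.31. The main fit did not pair libraries by number, and an effect shared by the libraries numbered I was not tested. With a replicate block, 1117 genes were called, 856 of them among the 886. The high-Pi group of Δ*pac-3* was the most variable (biological coefficient of variation 0.264). The differences of *con-13* and *pho-4* rest on levels below 3 CPM in every library of at least 2 groups.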
